A study of Mus musculus with 21 samples.

Results

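The genes described here are 10 markers of dividing cells, Mki67, Top2a, Ccna2, Ccnb1, Cdk1, Birc5, Mcm2, Mcm5, Pcna and E2f2. They were chosen as a list of mouse gene symbols, matched to their Entrez gene numbers. The rule itself uses no measured value, but the list was drawn up with earlier results of these data known. All 10 were found among the 27179 genes counted in every library. RNA was sequenced from podocyte fractions of 21 mice, 1 library per mouse. All mice were male wildtype C57BL/6J. Young mice were 4 months old and untreated (n = 6). Middle-aged mice were 19.5 months old at the end and had received intraperitoneal saline (n = 7) or MCC950, an inhibitor of the NLRP3 inflammasome, at 10 mg/kg (n = 8), for 6 weeks from an age of 18 months. Kidney cortex was digested and podocytes were pulled down on magnetic beads through nephrin, a protein of their surface, so each fraction is an enrichment and can hold other cells.

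A cell that divides first licenses its replication origins in G1, copies its DNA in S phase and then condenses and separates its chromosomes in mitosis. E2F transcription factors switch on the genes of DNA replication, and a second wave of genes, among them the mitotic cyclins, follows in G2. The podocyte is the filtering epithelial cell of the glomerulus and is known as a cell that does not normally divide in the adult kidney. Other cells of the kidney, such as tubule, endothelial and immune cells, keep the ability to divide.

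The sequence just before the start of these genes is shown for 4 members, since motifs of cell cycle promoters can be read in it. Mki67 and Top2a are shown as the members whose levels were most alike over the 21 libraries, and Mcm5 and Cdk1 as members with letters of an E2F site. The sequences are the 250 bases before the annotated RefSeq start, 5′ to 3′ on the strand of the gene, in build GRCm38.p6. Capitals mark the CCAAT box (CCAAT or ATTGG), the CHR element (TTTGAA or TTCAAA) and the E2F words.
Mki67 (chr7:135716380-135716629, minus strand): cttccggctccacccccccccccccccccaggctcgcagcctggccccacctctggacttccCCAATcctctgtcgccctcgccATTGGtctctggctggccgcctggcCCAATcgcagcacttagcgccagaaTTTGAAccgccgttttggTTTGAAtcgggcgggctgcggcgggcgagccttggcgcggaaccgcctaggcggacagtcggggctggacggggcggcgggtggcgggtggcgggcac
Top2a (chr11:99024190-99024439, minus strand): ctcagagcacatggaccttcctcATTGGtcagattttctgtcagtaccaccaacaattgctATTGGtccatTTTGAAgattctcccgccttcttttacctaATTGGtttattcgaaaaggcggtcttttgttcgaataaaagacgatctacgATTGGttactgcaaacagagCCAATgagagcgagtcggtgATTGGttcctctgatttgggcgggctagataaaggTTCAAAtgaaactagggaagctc
Cdk1 (chr10:69352913-69353162, minus strand): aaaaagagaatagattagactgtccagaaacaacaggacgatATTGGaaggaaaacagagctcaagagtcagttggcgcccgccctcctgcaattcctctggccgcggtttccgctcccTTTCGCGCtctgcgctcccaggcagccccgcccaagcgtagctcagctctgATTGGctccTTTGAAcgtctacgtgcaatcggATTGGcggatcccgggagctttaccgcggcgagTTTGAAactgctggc
Mcm5 (chr8:75109259-75109508, plus strand): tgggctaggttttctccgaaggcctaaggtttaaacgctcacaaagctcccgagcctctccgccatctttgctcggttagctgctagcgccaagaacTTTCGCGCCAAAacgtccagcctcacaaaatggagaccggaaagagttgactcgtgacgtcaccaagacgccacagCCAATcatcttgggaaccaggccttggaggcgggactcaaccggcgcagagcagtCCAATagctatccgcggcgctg
Windows of 300 bases, from 250 before to 50 after the start, were searched on both strands for CCAAT, for TTTGAA and for an E2F site given as TTTCCCGC, TTTCGCGC, TTTGCCGC or TTTGGCGC. RefSeq windows were at hand for 9 of the 10 members, Ccna2 being the other one. CCAAT occurred in 8 of the 9 members, all but Birc5, and in 41.1% of the 27025 genes with a window. TTTGAA occurred in 5 of the 9, Mki67, Top2a, Cdk1, Mcm2 and E2f2 (in its second window), and in 20.2% of all genes. An E2F word occurred in 3 of the 9, Cdk1, Mcm5 and E2f2, and in 2.61% of all genes. In E2f2 it lay after the start, from 39 to 46 bases beyond the annotated first base, outside the stretch printed for the others. In Mcm5 the words TTTCGCGC and GCGCCAAA, one on each strand, shared 4 bases, and in Top2a the CCAAT box occurred 6 times and in Mki67 3 times. These are matches of letters in a window and no binding was measured.

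Total counts per library were between 27375870 and 84876399, and the shallowest saline library was deeper than the deepest young one. Mitochondrial genes took 69.3% ± 9.82 (SD, n = 6) of the counts in young, 69.6% ± 5.32 (SD, n = 7) in saline and 56.4% ± 4.46 (SD, n = 8) in MCC950-treated mice. The 12 podocyte markers (Nphs1, Podxl, Synpo and others) were all present, with a summed level of 759 to 1696 CPM (counts per 1000000 counts of a library) in young, 300.1 to 549 CPM in saline and 392 to 657 CPM in MCC950-treated mice. Markers of other cells were present too. The 9 markers of macrophages and myeloid cells summed to 420.0 to 2113, 1545 to 3796 and 890 to 3665 CPM in the same order, and the 10 markers of B and plasma cells to 206 to 460, 3130 to 5664 and 595 to 7078 CPM. The 9 proximal tubule markers summed to 1610 to 6393, 1721 to 4128 and 2605 to 7876 CPM, and the 8 T cell markers to 5.63 to 15.7, 16.8 to 26.0 and 7.74 to 73.0 CPM. In such bulk samples more cells of a dividing kind and more of a transcript per cell cannot be told apart.

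All 10 members were detected in every library, and all passed the filter on low counts that left 16377 genes for testing. CPM values below use library sizes scaled by TMM. Per kilobase of exon sequence (GENCODE gene models), Pcna had the highest level, with a mean of 7.82 CPM per kb over the 21 libraries, followed by E2f2 with 1.64, Mcm5 with 1.27, Mki67 with 0.904 and Mcm2 with 0.748 CPM per kb. Birc5 (0.329 CPM per kb), Top2a (0.327), Ccna2 (0.252), Cdk1 (0.213) and Ccnb1 (0.0755) were lower. Pcna exceeded E2f2 in 21 of 21 libraries, Mcm5 exceeded Mki67 in 21, Mcm2 exceeded Birc5 in 21 and Cdk1 exceeded Ccnb1 in 21. Other neighbours in this order were not separated in every library, E2f2 lying above Mcm5 in 19, Mki67 above Mcm2 in 16, Top2a above Ccna2 in 16, Ccna2 above Cdk1 in 13 and Birc5 above Top2a in 11 of the 21.

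**Figure D1:**
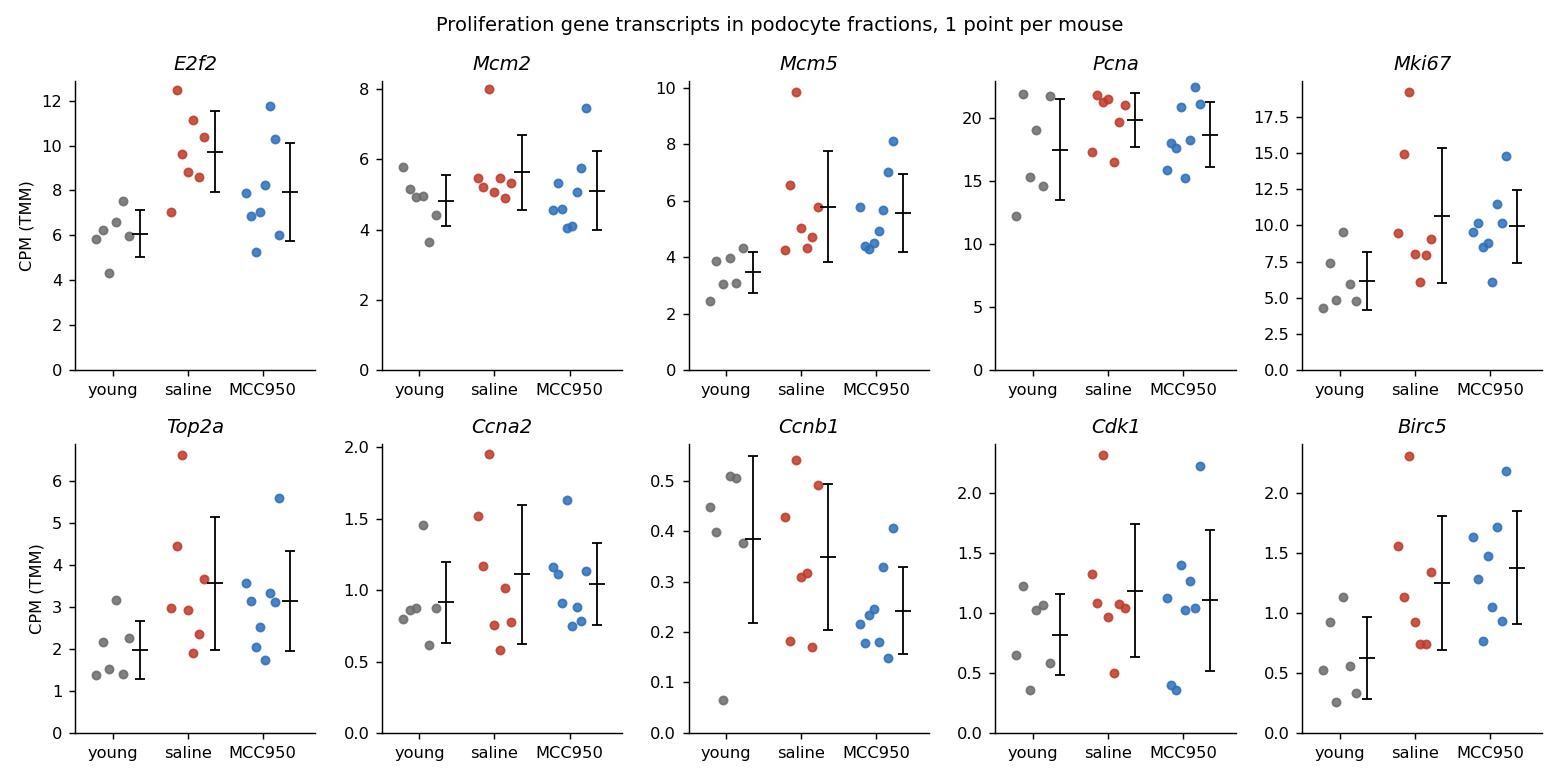
Level of each proliferation gene in CPM (TMM-scaled) in each of the 21 libraries, 1 point per mouse, with the mean and SD of each group beside its points; each vertical axis starts at 0. For E2f2, Mcm5, Mki67, Top2a and Birc5 all 7 saline points and 6 to 8 of the 8 MCC950 points lie above the young median, and in each panel the groups overlap.

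The first question was whether transcripts of these genes differed between young and middle-aged kidneys. The young mice were untreated and the middle-aged mice had saline injections, so age and the injections cannot be told apart, and the saline libraries were also deeper. In saline-treated middle-aged mice 5 of the 10 members were higher than in young mice (E2f2, Mcm5, Mki67, Top2a and Birc5) and 0 were lower (adjusted p under 0.05). By the same rule 12.2% of the genes tested were higher and 12.4% lower. The members' median log2 fold change was 0.61 and 9 of 10 were positive, beside a median of 0.02 and 52.7% positive over all genes. No member separated the groups without overlap, while 4.51% of all genes were higher and 4.86% lower in saline with no overlap. Results are given from the entry into S phase to mitosis.

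E2f2, a transcription factor that activates genes of DNA replication (chromosome 4), had 4.33 CPM in the lowest, 6.10 at the median and 7.52 CPM in the highest young library, and 7.02, 9.64 and 12.5 CPM in saline. Saline levels exceeded every young level in 6 of 7 mice, the one exception lying within the young range. E2f2 was higher in saline than in young mice by a log2 fold change of 0.68 (SE 0.17, adjusted p = 0.00624).

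Mcm5 and Mcm2 (chromosomes 8 and 6) encode subunits of the MCM2-7 helicase, which is loaded on origins and unwinds DNA in S phase. Mcm5 had 2.44, 3.48 and 4.35 CPM (lowest, median and highest) in young and 4.25, 5.05 and 9.88 CPM in saline. In 5 of 7 saline mice it was above every young mouse, and it rose by 0.74 on the log2 scale (SE 0.20, adjusted p = 0.0106). Mcm2 had 3.65, 4.95 and 5.80 CPM in young and 4.89, 5.32 and 8.01 CPM in saline. A single saline library, replicate 3, lay above the young range of Mcm2, and the log2 fold change was 0.22 (SE 0.14, adjusted p = 0.294). The other 4 subunits, looked at after the values of Mcm5 and Mcm2 were seen, gave log2 fold changes of 0.67 for Mcm3 (SE 0.19, adjusted p = 0.0146), 0.17 for Mcm4 (SE 0.13, adjusted p = 0.366), 0.69 for Mcm6 (SE 0.13, adjusted p = 0.000749) and 0.44 for Mcm7 (SE 0.10, adjusted p = 0.00290). Mcm7 did not pass after thinning to equal depth (adjusted p = 0.0643) and Mcm3 not with the macrophage and myeloid score in the fit (adjusted p = 0.293). Whether the subunits differed from each other was not tested.

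Pcna (chromosome 2), the sliding clamp of DNA polymerases, which also serves in DNA repair, had 12.3, 17.2 and 21.9 CPM in young and 16.5, 21.04 and 21.9 CPM in saline. No saline library exceeded the highest young one, and the log2 fold change was 0.18 (SE 0.13, adjusted p = 0.308).

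Mki67 (chromosome 7) encodes Ki-67, the protein that coats mitotic chromosomes and is used in pathology to mark cycling cells. It had 4.31, 5.40 and 9.55 CPM in young and 6.06, 9.03 and 19.2 CPM in saline. All 7 saline values were above the young median, 2 of them above every young value, and Mki67 rose by 0.79 on the log2 scale (SE 0.25, adjusted p = 0.0256). Top2a (chromosome 11), the topoisomerase that untangles DNA before chromosomes separate, had 1.37, 1.84 and 3.17 CPM in young and 1.91, 2.98 and 6.62 CPM in saline. All 7 saline values again exceeded the young median and 3 exceeded every young value. Top2a rose by 0.84 on the log2 scale (SE 0.29, adjusted p = 0.0407).

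Ccna2, Ccnb1 and Cdk1 (chromosomes 3, 13 and 10) encode cyclin A2, cyclin B1 and the kinase that these cyclins activate to drive cells through G2 into mitosis. None of the 3 passed the test. Cdk1 had 0.355, 0.834 and 1.23 CPM in young and 0.499, 1.07 and 2.31 CPM in saline, with 2 of 7 saline libraries above every young one (log2 fold change 0.54, SE 0.39, adjusted p = 0.340). Ccna2 had 0.618, 0.867 and 1.46 CPM in young and 0.584, 1.01 and 1.96 CPM in saline (0.26 on the log2 scale, SE 0.27, adjusted p = 0.513). Ccna2 overlaps Exosc9 on the other strand, and as the strand setting of the counting is not given in the sources used here, reads of their shared part cannot be told apart.

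Ccnb1 was at the limit of detection. Its raw counts were 2 to 18 in young, 10 to 26 in saline and 8 to 19 in MCC950-treated mice, and its pseudogene Ccnb1-ps drew 0 to 12, 8 to 22 and 4 to 44 counts in the same groups, so how reads were split between them is uncertain. Ccnb1 had 0.0646, 0.423 and 0.510 CPM in young and 0.171, 0.316 and 0.542 CPM in saline, and was the one member with a negative value (log2 fold change -0.14, SE 0.36, adjusted p = 0.822).

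Birc5 (chromosome 11) encodes survivin, a subunit of the chromosomal passenger complex that acts at kinetochores and in cytokinesis. It had 0.258, 0.542 and 1.13 CPM in young and 0.742, 1.13 and 2.31 CPM in saline. The saline values were all above the young median, with 4 of 7 above every young value. Birc5 rose by 0.99 on the log2 scale (SE 0.34, adjusted p = 0.0393), the largest value among the 10, from raw counts of 8 to 31 in young and 48 to 98 in saline.

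The calls of E2f2 and Mcm5 held in each of the 21 fits that left out 1 library, while the other 3 calls did not. The 5 calls fell to 2 without young replicate 1, young replicate 3, saline replicate 2 or saline replicate 3, and to 3 without young replicate 5, young replicate 6 or saline replicate 7, with adjusted p-values of up to 0.0777 for Mki67, 0.114 for Top2a and 0.103 for Birc5. With all libraries thinned to an equal depth, Mki67 (adjusted p = 0.0317) and Mcm5 (adjusted p = 0.0134) stayed past the threshold, while Top2a (adjusted p = 0.0787), Birc5 (adjusted p = 0.0618) and E2f2 (adjusted p = 0.0841) did not.

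**Figure D2:**
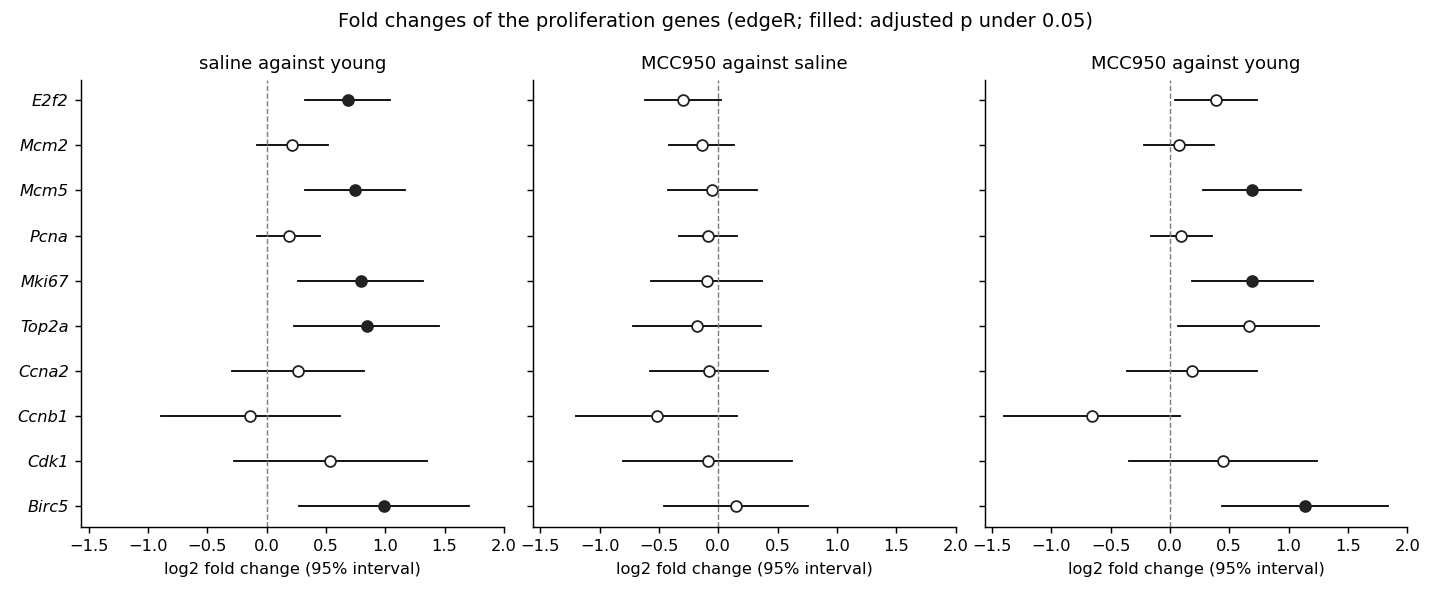
Log2 fold changes (edgeR) of the 10 genes in the 3 comparisons, with 95% intervals as horizontal lines; filled points have an adjusted p under 0.05. Filled points are 5 for saline against young, 0 for MCC950 against saline and 3 for MCC950 against young, and Ccnb1 lies below 0 in all 3 panels.

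Markers of other cell types differed between these groups too. All 9 macrophage and myeloid markers had positive log2 fold changes in saline against young mice and 3 passed the test, while 6 of the 10 B and plasma cell markers and 4 of the 8 T cell markers rose and 11 of the 12 podocyte markers fell. Of the endothelial markers 7 of 8 fell (median log2 fold change -1.07), as did 5 of 6 of mesangium and smooth muscle (median -1.18). Once the fit included the macrophage and myeloid score as a term, the log2 fold changes of the age comparison were 0.26 for Mki67 (adjusted p = 0.412), 0.20 for Top2a (adjusted p = 0.592), 0.48 for Birc5 (adjusted p = 0.352), 0.31 for Mcm5 (adjusted p = 0.197) and 0.48 for E2f2 (adjusted p = 0.0685). In that fit 0 of the 10 members passed, while over all genes 1680 were still higher and 1695 lower. With the podocyte score or the B and plasma cell score as the term 0 members passed as well, but the young and saline libraries do not overlap on these scores, and over all genes 6 were higher and 0 lower with the former, 0 higher and 2 lower with the latter. With the proximal tubule score all 5 calls were kept.

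Within groups the members' levels also went along with those of the macrophage and myeloid markers. After subtraction of group means, the correlation of the log2 level with the log2 summed marker level over the 21 libraries was 0.74 for Pcna, 0.74 for Mcm5, 0.71 for Top2a, 0.69 for Mki67, 0.59 for Cdk1 and 0.52 for Birc5. It was 0.39 for E2f2, 0.31 for Ccnb1, 0.31 for Ccna2 and 0.27 for Mcm2. The T cell markers gave 0.65 for Cdk1, 0.65 for Mcm5, 0.56 for Top2a, 0.53 for Mki67, 0.50 for Pcna, 0.46 for Birc5, 0.46 for Mcm2, 0.37 for Ccnb1, 0.25 for E2f2 and 0.09 for Ccna2. Of the 12 marker lists, the highest value was with macrophages and myeloid cells for Pcna, Mcm5, Top2a, Mki67 and Birc5, with T cells for Cdk1, Mcm2 and Ccnb1, with B and plasma cells for E2f2 (0.65) and with mesangium and smooth muscle for Ccna2 (0.47). The parietal epithelium and proximal tubule lists mostly went the other way. Values with the parietal epithelium markers ran from -0.74 for Pcna to 0.01 for Ccnb1. With the proximal tubule markers they ran from -0.72 for Pcna to -0.02 for Ccnb1. The podocyte markers gave 0.52 for Pcna, 0.40 for Mki67, 0.34 for Top2a, 0.31 for Ccna2, 0.23 for Mcm2, 0.20 for Mcm5 and 0.12 for Birc5. They gave -0.08 for Cdk1, -0.23 for Ccnb1 and -0.23 for E2f2. All these values are descriptions of the same libraries, which share depth and cell content. The part of each cell type in the members' levels was not tested.

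**Figure D3:**
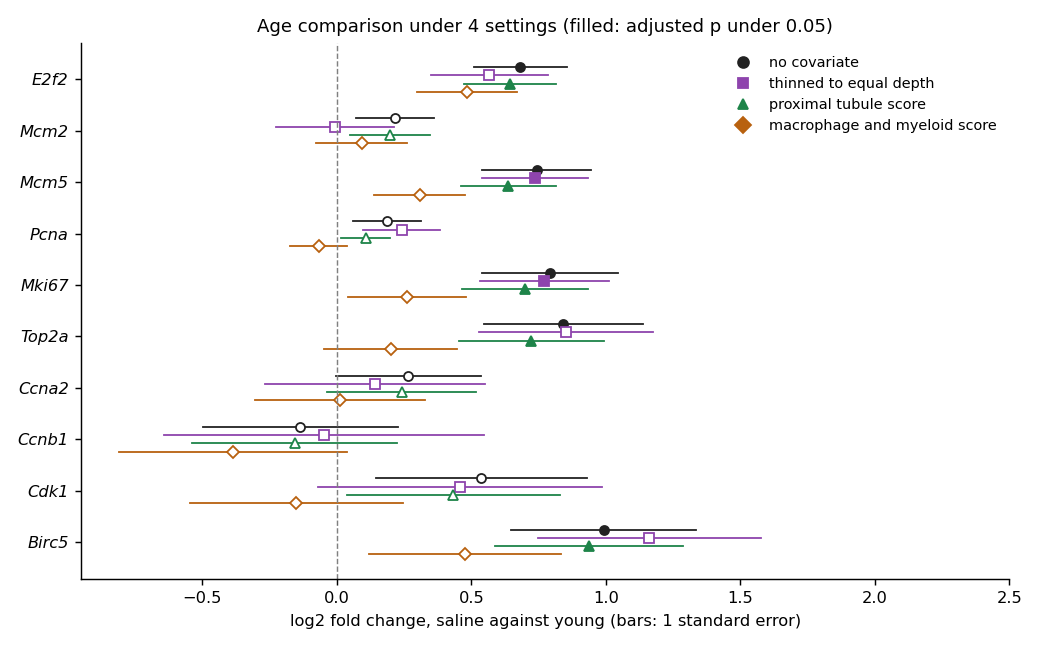
Log2 fold changes of the age comparison for the 10 genes in the fit without a covariate, in libraries thinned to equal depth and with the proximal tubule or the macrophage and myeloid marker score as a term; bars are 1 standard error and filled symbols have an adjusted p under 0.05. With the macrophage and myeloid score no symbol is filled and Mki67 moves from 0.79 to 0.26.

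The libraries highest in these genes were largely the same from gene to gene. Saline replicate 3 was the highest saline library for 8 of the 10 members, all but Pcna and E2f2, and it also had the highest macrophage and myeloid sum of all libraries, 3796 CPM. MCC950 replicate 8 was the highest of its group for 7 of 10 members (3665 CPM of macrophage and myeloid markers, and the highest T cell sum, 73.0 CPM). Young replicate 4 was the highest young library for 5 of 10 members and had the highest macrophage and myeloid sum of the young, 2113 CPM. In saline replicate 3 Mki67 reached 19.2 CPM and Top2a 6.62 CPM, and in MCC950 replicate 8 they reached 14.8 and 5.61 CPM.

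Mki67 and Top2a, whose upstream sequences are printed above, had the highest correlation of any pair of members, r = 0.93 over the 21 libraries and 0.90 after subtraction of group means. Top2a and Mcm5 followed with 0.89 and 0.85, and Mki67 and Mcm5 had 0.85 and 0.75. Ccnb1, the member with the fewest counts, had 0.05 with Mcm5 and 0.15 with Mki67 over all libraries, and 0.26 and 0.35 within groups, where it had 0.70 with Birc5 and 0.54 with Cdk1. E2f2 and Mki67 had 0.46 over all libraries and 0.17 within groups.

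**Figure D4:**
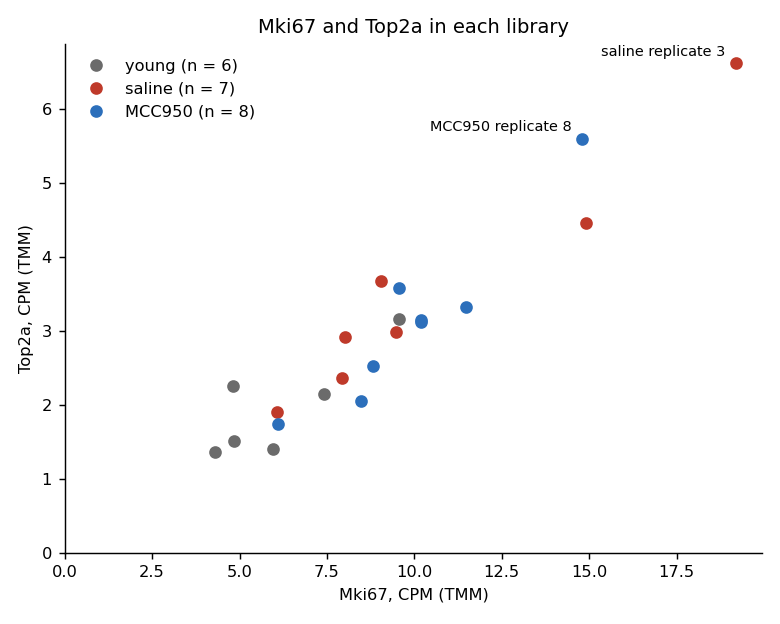
Top2a against Mki67, both in CPM (TMM-scaled), in each of the 21 libraries, coloured by group, with both axes starting at 0. The points form a single band (r = 0.93 on log2 levels), and saline replicate 3 and MCC950 replicate 8 lie at its upper end.

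Over all 16377 genes tested, the gene with the pattern most like that of Mki67 was Top2a, followed by Vps9d1 (r = 0.91) and Cd276 (r = 0.87). For Top2a they were Mki67, Asf1b, a histone chaperone of replicating chromatin (r = 0.89), and Mcm5. For Ccna2 they were Prc1, Cep55 and Cenpe (r = 0.72, 0.71 and 0.70), genes of the spindle, the midbody and the kinetochore. For Birc5 they were Ckap2l, Kif4 (both r = 0.85) and Mki67. For Mcm5 the first was Msr1, a scavenger receptor of macrophages (r = 0.90), then Arpc4 and Aldh3b1 (both r = 0.89). For E2f2 it was Ctse, which encodes the protease cathepsin E (r = 0.90), then C130050O18Rik (r = 0.89) and Cd244a (r = 0.88). For Pcna they were Ier5, Map7d1 and Hlx (r = 0.92, 0.91 and 0.90). Cdk1 had the DNA ligase gene Lig1 (r = 0.80), Slit1 (r = 0.78) and a gene without a symbol (r = 0.77). Mcm2 had Cp, the gene of ceruloplasmin (r = 0.75), Rad54b (r = 0.75) and Asf1b (r = 0.73). Ccnb1 had Nedd1 (r = 0.81), Sertad4 (r = 0.74) and Gpr21 (r = 0.73). After subtraction of group means the values of all these genes ran from 0.69 (Cenpe with Ccna2) to 0.92 (Hlx with Pcna).

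The second question was whether MCC950 changed these transcripts in middle-aged mice. No member differed between MCC950-treated and saline-treated mice, with 0 higher and 0 lower by edgeR, 0 at an unadjusted p under 0.05 and 0 by DESeq2. Over all genes tested 11.9% were higher and 4.86% lower. No member separated these groups without overlap, as 1.15% of all genes did upward and 0.586% downward. In MCC950-treated mice Mki67 had 6.10, 9.88 and 14.8 CPM (lowest, median and highest), Top2a 1.74, 3.14 and 5.61 CPM and Birc5 0.763, 1.38 and 2.18 CPM. All MCC950 values of Mki67 and Birc5 lay within the range of the saline libraries. The log2 fold change was -0.10 for Mki67 (95% interval -0.57 to 0.37, adjusted p = 0.806), -0.18 for Top2a (-0.72 to 0.36, adjusted p = 0.676) and 0.15 for Birc5 (-0.46 to 0.76, adjusted p = 0.768).

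Among the genes of S phase, Mcm5 had 4.28, 5.30 and 8.13 CPM, Mcm2 4.05, 4.82 and 7.47 CPM and Pcna 15.3, 18.1 and 22.5 CPM in MCC950-treated mice. Mcm5 stayed within the saline range, and for Mcm2 4 of the 8 MCC950 libraries were below every saline library. Their log2 fold changes were -0.05 (95% interval -0.43 to 0.32), -0.14 (-0.41 to 0.13) and -0.09 (-0.33 to 0.15). E2f2 had 5.26, 7.47 and 11.8 CPM, with 3 of 8 libraries below every saline one, and a log2 fold change of -0.29 (-0.61 to 0.03, adjusted p = 0.196).

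Of the genes of G2 and mitosis, Ccna2 had 0.749, 1.01 and 1.63 CPM, Cdk1 0.360, 1.08 and 2.23 CPM and Ccnb1 0.148, 0.225 and 0.407 CPM in MCC950-treated mice. The groups overlapped for all 3. The log2 fold changes were -0.08 for Ccna2 (-0.58 to 0.42), -0.09 for Cdk1 (-0.80 to 0.62) and -0.52 for Ccnb1 (-1.20 to 0.16). The intervals of Mki67, Top2a, Ccna2, Ccnb1, Cdk1 and E2f2 include a fall of 0.5 on the log2 scale, and those of Cdk1 and Birc5 include a rise of 0.5. Without saline replicate 3 the sign turned positive for Mki67 (0.09), Top2a (0.02), Ccna2 (0.09), Cdk1 (0.14) and Mcm5 (0.11).

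The comparison of MCC950-treated middle-aged mice with young mice shares its young libraries with the age comparison and its treated libraries with the drug comparison. Here 3 members were higher (Birc5, Mcm5 and Mki67) and 0 lower, where 21.8% of all genes were higher and 16.5% lower. The share of the members that was higher was near that of all genes. Again no member was free of overlap between the groups, while 3.28% of all genes were higher and 4.66% lower with none. The median log2 fold change of the members was 0.42, beside 0.08 over all genes. Birc5 rose by 1.14 on the log2 scale (SE 0.34, adjusted p = 0.0115), Mcm5 by 0.69 (SE 0.20, adjusted p = 0.00941) and Mki67 by 0.69 (SE 0.25, adjusted p = 0.0306). MCC950 values exceeded every young value in 7 of 8 mice for Mcm5 and in 5 of 8 for Birc5 and for Mki67.

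Top2a (0.66, SE 0.29, adjusted p = 0.0728) and E2f2 (0.39, SE 0.17, adjusted p = 0.0702) did not pass, although both were higher in saline than in young mice. That difference between the comparisons is the drug comparison itself, in which neither gene passed. Cdk1 had 0.45 (adjusted p = 0.366), Ccna2 0.19 (adjusted p = 0.602), Pcna 0.10 (adjusted p = 0.558), Mcm2 0.08 (adjusted p = 0.696) and Ccnb1 -0.66 (adjusted p = 0.153). Without young replicate 3, whose Ccnb1 level of 0.0646 CPM was the lowest of all libraries, Ccnb1 was lower by the test (log2 fold change -0.90, adjusted p = 0.0327). The call of Mki67 was lost without young replicate 1, 3, 5 or 6 or MCC950 replicate 8, with adjusted p-values of up to 0.0864, and Top2a passed in the fit that left out young replicate 4 (adjusted p = 0.0448) and in the one that left out MCC950 replicate 5 (adjusted p = 0.0434). With the macrophage and myeloid score in the fit, Birc5 (0.80, adjusted p = 0.0442) and Mcm5 (0.41, adjusted p = 0.0290) still passed and Mki67 (0.36, adjusted p = 0.126) did not. In that fit 4340 of all 16377 genes were higher and 3120 lower, against 3572 and 2705 without the score. Thinned to equal depth, Mcm5 passed (adjusted p = 0.0282) and Birc5 (adjusted p = 0.0502) and Mki67 (adjusted p = 0.0728) did not, and with the proximal tubule score in the fit 6 members passed, Top2a, Pcna and E2f2 being added. Over all genes 1933 of 16362 were higher and 1940 lower after thinning. With the proximal tubule score 3430 of 16377 were higher and 2594 lower. E2f2 also passed in the fits that left out MCC950 replicate 3 (adjusted p = 0.0298) and replicate 8 (adjusted p = 0.0472).

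A wider list of 88 other cell cycle genes, grouped by role, was read beside the 10 members, and 85 of them passed the filter on low counts. In saline against young mice 24 were higher and 0 lower, against 12.2% and 12.4% of all genes. Of 30 genes of origin licensing and DNA replication 17 were higher and 29 had a positive log2 fold change (median 0.55). Of 35 tested genes of G2 and mitosis 4 were higher, a share near that of all genes, and 33 were positive (median 0.37). Of 20 regulators of the G1 to S step 3 were higher and 11 were positive (median 0.03), both shares near those of all genes.

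Among the licensing and replication genes the largest rises were those of Cdc6, which loads the MCM helicase (log2 fold change 1.41, SE 0.38, adjusted p = 0.00993), Gins2, a subunit of the active helicase (1.28, SE 0.39, adjusted p = 0.0202), and Orc1, of the origin recognition complex (1.17, SE 0.35, adjusted p = 0.0197). In G2 and mitosis they were Racgap1, of the central spindle (0.88, SE 0.21, adjusted p = 0.00422), Cks1b, a partner of cyclin-dependent kinases (0.78, SE 0.22, adjusted p = 0.0117), and Bub1b, of the spindle checkpoint (0.70, SE 0.21, adjusted p = 0.0172). Among the G1 to S regulators Skp2, which marks the inhibitor p27 for breakdown, rose by 0.95 (SE 0.22, adjusted p = 0.00329), Cdk2 by 0.40 (SE 0.09, adjusted p = 0.00246) and Cdk4 by 0.29 (SE 0.09, adjusted p = 0.0169). With the macrophage and myeloid score in the fit 10 of the wider list were higher and 4 lower, beside 1680 and 1695 of all 16377 genes. After thinning to equal depth 8 were higher, beside 1292 of all 16362 genes. In both settings the share of the list that was higher was near that of all genes. Several of these calls did not hold throughout. Cdc6 (adjusted p = 0.269 and 0.145), Gins2 (0.0534 and 0.148), Orc1 (0.0756 and 0.127), Cks1b (0.0658 and 0.152) and Bub1b (0.254 and 0.277) lost theirs after thinning and with the macrophage and myeloid score. Racgap1 lost it with that score (adjusted p = 0.0669), Cdk4 after thinning (adjusted p = 0.0987) and Bub1b also without saline replicate 2 (adjusted p = 0.0505), while Skp2 and Cdk2 kept theirs under both. Cdk2, Cdk4, Skp2, Gins2, Mcm7, Rb1 and Tk1 each overlap a protein-coding gene of the other strand.

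**Figure D5:**
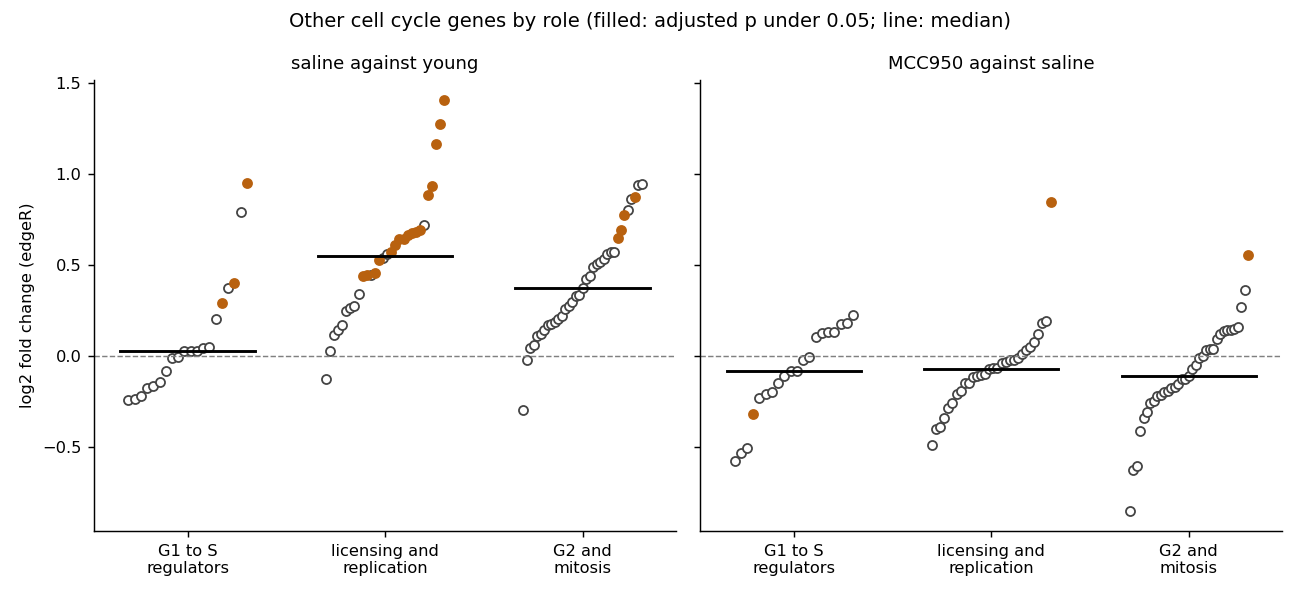
Log2 fold changes (edgeR) of the 85 other cell cycle genes tested, 1 point per gene, by role, for saline against young and MCC950 against saline; filled points have an adjusted p under 0.05 and black lines are medians. In the age comparison 17 of 30 licensing and replication genes are filled, and in the drug comparison 3 points are filled in all.

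Between MCC950-treated and saline-treated mice 2 of the 85 genes were higher and 1 was lower, where 11.9% of all genes were higher and 4.86% lower. Cks2, a partner of cyclin-dependent kinases, rose by 0.56 (SE 0.14, adjusted p = 0.0112), while Rb1, which encodes the retinoblastoma protein that restrains E2F factors, fell by 0.32 on the log2 scale (SE 0.09, adjusted p = 0.0248). In the same comparison 6 of the 9 proximal tubule markers were higher. With the proximal tubule score as a covariate the values were 0.39 for Cks2 (adjusted p = 0.205) and -0.12 for Rb1 (adjusted p = 0.546). In that fit 374 genes were higher and 301 lower over all genes, against 1957 and 796 without the score. The medians of the 3 roles were -0.08 for G1 to S, -0.07 for licensing and replication and -0.11 for G2 and mitosis.

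Against young mice, MCC950-treated mice had 19 of the 85 genes higher and 2 lower, beside 21.8% and 16.5% of all genes. The share of the list that was higher was near that of all genes. By role, 13 of 30 licensing and replication genes were higher (median 0.50), 5 of 35 genes of G2 and mitosis (median 0.29) and 1 of 20 G1 to S regulators (median 0.03), where 21.8% of all genes were higher. Tk1, a thymidine kinase, rose by 0.97 (SE 0.14, adjusted p = 2.65e-05) and Mcm10, which activates the helicase, by 0.84 (adjusted p = 0.0309). Cks2 rose by 0.73 (adjusted p = 0.000719), Mybl2, a transcription factor of the G2 genes, by 0.72 (adjusted p = 0.0178), Cks1b by 0.62 (adjusted p = 0.0240) and Cdk4 by 0.47 (adjusted p = 0.000234). Rb1 fell by 0.46 (adjusted p = 0.00109) and E2f3 by 0.35 (adjusted p = 0.0115) on the log2 scale. The calls of Mcm10 and Cks1b each depended on single libraries, with adjusted p-values of up to 0.0790 and 0.0810 when 1 library was left out (Mcm10 without young replicate 3, 4, 5 or 6 or MCC950 replicate 1 or 8, Cks1b without young replicate 2, 3, 4 or 6). Thinned to equal depth, Mcm10 (adjusted p = 0.133), Cks1b (adjusted p = 0.331), Mybl2 (adjusted p = 0.594) and E2f3 (adjusted p = 0.361) did not pass. With the podocyte score in the fit, Cdk4, Rb1, E2f3, Mcm10, Cks2, Mybl2 and Cks1b did not pass either (adjusted p-values of 0.413 to 0.664). In that fit 64 genes were higher and 145 lower over all genes, against 3572 and 2705 without the score. The young and MCC950-treated libraries do not overlap on the summed podocyte markers, so these losses cannot be read as particular to the named genes.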

How the data were processed

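Podocyte fractions of 21 mice were sequenced. Reads were trimmed by the authors (TrimGalore), mapped with Bowtie2 to mm10 (GRCm38) and assigned to genes by featureCounts. The deposited counts are raw counts per Entrez gene, 1 table per mouse. Versions, the annotation release and the handling of strand and multi-mapping reads are not given in the sources used here. A deposited normalized table was not used. Entrez numbers were matched to symbols with RefSeq for 25275 of 27179 genes and with GENCODE for a further 18.

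Counts were tested with edgeR 4.0.16 in R 4.3.3 (quasi-likelihood F test, TMM, all 3 groups in 1 fit without covariates, genes kept by filterByExpr with a minimum count of 10). P-values were adjusted by Benjamini-Hochberg over 16377 genes, with a threshold of 0.05. Standard errors are the log2 fold change over the root of F, and 95% intervals come from the same fit. In counts simulated for saline against young over 16377 genes, 169 of 200 changed genes and 7 unchanged genes were called. Marker scores, used as covariates, come from lists of cell type genes. Tables and figures were made with Python 3.11.15, pandas 2.3.3 and matplotlib 3.10.9.

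The members, the wider cell cycle list and the marker lists were chosen with earlier results of these data known. Named genes are the 10 members, up to 3 of the largest rises and falls of each role among genes past the threshold, and the genes of highest Pearson r with each member over 21 libraries (log2 CPM, prior count 2). A further gene that this rule picked is counted but not reported here. Alternatives were DESeq2 1.42.0, its size factors in edgeR, no filter, mitochondrial genes left out, a replicate block, thinning to 5804891 counts outside mitochondrial genes, 4 marker scores as covariates and leaving out each library.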

Additional observations from a re-analysis of the deposited data

Results flagged for a closer look

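A library was picked out where it stood far from the nearest other library of its group (Dixon's criterion), in 8 of 66 groups of members and marker sums. For independent groups of normally distributed values, chance would pick out about 1 in 20. The groups here share libraries, and whether their CPM values are so distributed was not tested. The count therefore cannot be set against that rate. Saline replicate 3 stood above its group in Mcm2 (8.01 CPM, the next 5.48 CPM) and in Mcm5 (9.88 CPM, the next 6.57 CPM). Ccna2 stood out in young replicate 4 (1.46 CPM, the next 0.878 CPM) and in MCC950 replicate 4 (1.63 CPM, the next 1.16 CPM). Ccnb1 was low in young replicate 3 (0.0646 CPM, the next 0.376 CPM), where it had 2 raw counts. Among the summed markers, MCC950 replicate 8 stood out for T cells (73.02 CPM, the next 25.2 CPM), MCC950 replicate 2 for mesangium and smooth muscle (105.02 CPM, the next 73.6 CPM) and saline replicate 5 for red blood cells (261.56 CPM, the next 111.19 CPM).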

How the results depend on the processing

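The log2 fold changes of E2f2 and Mcm5 in the age comparison passed the threshold in all 21 fits without 1 library. Without 1 library, members higher in saline against young numbered 2 to 5 and genes of the wider list 18 to 26 higher and 0 to 1 lower. Members higher in MCC950 against young numbered 2 to 4 (lower 0 to 1), genes of the wider list 13 to 22 higher and 2 to 3 lower, and genes of the wider list lower in MCC950 against saline 1 to 3. Over all genes the same fits called 1353 to 2270 higher in saline against young and 2556 to 3725 in MCC950 against young. They called 515 to 1007 lower in MCC950 against saline. The cause of these changes was not tested. Ccnb1 had 2 to 26 raw counts per library.

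Thinned to equal depth, 2 members and 8 list genes were higher in saline against young, 1 member and 6 list genes higher and 1 list gene lower in MCC950 against young, and 1 list gene higher and 2 lower in MCC950 against saline. The podocyte score left 0 members and 0 list genes higher in saline against young, 0 and 1 higher and 0 lower in MCC950 against young, and 2 list genes lower in MCC950 against saline. Over all genes that score left 6 higher and 0 lower in saline against young. In MCC950 against young it left 64 higher and 145 lower, and in MCC950 against saline 2587 higher and 1222 lower. The B and plasma cell score left 0 and 0 higher in saline against young, 1 member and 9 list genes higher in MCC950 against young, and 0 list genes lower in MCC950 against saline. Over all 16377 genes it left 0 higher and 2 lower in saline against young. It left 2086 and 1121 in MCC950 against young, and 870 and 600 in MCC950 against saline. The macrophage and myeloid score left 0 members and 10 list genes higher and 4 lower in saline against young, 2 members (Birc5 and Mcm5) and 17 list genes higher and 6 lower in MCC950 against young, and 2 lower in MCC950 against saline. Over all 16377 genes that score left 1680 higher and 1695 lower in saline against young. In MCC950 against young it left 4340 higher and 3120 lower. There the shares of members and of list genes called were not above those of all genes. In MCC950 against saline it left 1894 higher and 917 lower over all genes. The proximal tubule score gave 2 list genes lower in saline against young, 6 members higher in MCC950 against young, and 1 list gene higher and 0 lower in MCC950 against saline. Over all 16377 genes it gave 2714 higher and 2274 lower in saline against young. It gave 3430 and 2594 in MCC950 against young, and 374 and 301 in MCC950 against saline. List genes lower in saline against young numbered 1 with DESeq2 and 1 with its size factors, and in MCC950 against saline 3 and 2. Over all 16377 genes 2507 and 2276 were lower in saline against young, and 1250 and 933 in MCC950 against saline.

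Same-numbered mice did not deviate together in every pair (correlations -0.06 to 0.35 for saline and young, -0.14 to 0.33 for MCC950 and saline, -0.01 to 0.40 for MCC950 and young), so the numbers were not taken to pair the mice. With the replicate number as a block, 4 members were higher in saline against young, 2 in MCC950 against young, and 2 list genes were lower in MCC950 against saline. Over all 16377 genes 2219 were then higher in saline against young and 3857 in MCC950 against young, and 904 were lower in MCC950 against saline. Mcm2 turned to -0.034 in MCC950 against young with the block.

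Signs turned for genes that mostly did not pass the test. In saline against young these were Cdk4 with the podocyte score (-0.059), Mcm4 (-0.10), Cdk1 (-0.15) and Pcna (-0.068) with the macrophage and myeloid score, Mcm4 (-0.26) and Pcna (-0.12) with the B and plasma cell score, and Mcm2 when thinned (-0.0069). In MCC950 against saline the proximal tubule score gave Mki67 0.33, Top2a 0.36, Ccna2 0.048, Cdk1 0.27, Mcm5 0.37 and Pcna 0.25, the macrophage and myeloid score Mki67 0.10, Top2a 0.049, Ccna2 0.023, Cdk1 0.11, Mcm5 0.10 and Pcna 0.00191, the B and plasma cell score Mcm5 0.070, and thinning Ccna2 0.20, Birc5 -0.051 and Mcm2 0.10. In MCC950 against young the macrophage and myeloid score gave Cdk1 -0.041, Mcm2 -0.017 and Pcna -0.066, and the B and plasma cell score Pcna -0.12 and E2f2 -0.10. Without 1 library, MCC950 against saline gave -0.20 to 0.091 for Mki67, -0.35 to 0.025 for Top2a, -0.20 to 0.090 for Ccna2, -0.31 to 0.14 for Cdk1 and -0.15 to 0.11 for Mcm5, and MCC950 against young gave -0.021 to 0.14 for Mcm2.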
